A study of Saccharomyces cerevisiae with 36 samples.

Results

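The ATG genes of budding yeast (Saccharomyces cerevisiae) encode the machinery of autophagy. They were taken as every gene of the deposited count table whose name is ATG followed by a number, which gave 31 of 7126 genes. By roles assigned for this report, 22 were put in the core machinery and 9, ATG26 among them, in selective autophagy. All 31 were abundant enough to be tested, the lowest count of any of them in any library being 14. RNA was sequenced from 4 strains in 3 conditions, with 3 libraries in each of 12 groups and 36 libraries in all. Cultures in rich medium (YPD) at 25 °C were either heated to 37 °C for 15 min, or exposed for 1 h to AzC (azetidine-2-carboxylic acid) at 10 mM without a change of temperature, or kept untreated. Ribosomes use AzC where proline belongs, and the proteins made with it fold poorly. All strains were mating type a with the auxotrophic markers his3∆1 leu2∆0 ura3∆0 met15∆0.

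The strain labelled hsf1∆, called hsf1∆ here, carries per its genotype label a cassette in place of HSF1, the heat shock transcription factor gene, with YDJ1 under the ADH1 promoter, kanMX, HSC82 under the TEF1 promoter and SSA2 under the TDH3 promoter, 3 chaperone genes. The HSF1+ strain, named HSF1 in the labels, has the same cassette together with HSF1+, and its genotype also lists LYS2. The strain labelled msn2/4∆ carries msn2::hphMX4 and msn4::natMX4, disruptions of the genes for the general stress transcription factors Msn2 and Msn4. The wild type (WT) has neither the cassette nor these disruptions. The hsf1∆ strain was compared with HSF1+, and the strain labelled msn2/4∆ with WT.

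Libraries held 8159203 to 99558095 counts, 4 of them (untreated WT 2 and 3, AzC-treated HSF1+ 1 and 2) at 42724231 or more and the other 32 at 15448180 or less. Levels are given in CPM, counts scaled to library size after TMM normalization. HSF1 was at 12.4 to 16.7 CPM in untreated hsf1∆ libraries, against 54.4 to 57.2 CPM in untreated HSF1+ libraries, and stood at 94.1 to 100.8 CPM in untreated WT. After heat it was at 19.2 to 32.3 CPM in hsf1∆, a rise of 0.87 ± 0.15 (SE, log2; edgeR adjusted p = 6.87e-06) over untreated hsf1∆, against 149.1 to 163 CPM in heat-treated HSF1+. HSF1 counts were thus lower in hsf1∆ than in HSF1+ and not lost. MSN2 was at 1.0 to 2.1 CPM in the untreated libraries labelled msn2/4∆, against 130.6 to 136.03 CPM in WT. MSN4 was at 49.6 to 58.4 CPM in the untreated libraries labelled msn2/4∆, against 32.8 to 47.0 CPM in WT, so MSN4 counts were not lost in the strain labelled as lacking it. Counts per gene do not show whether such reads lie outside the part of HSF1 or MSN4 that was replaced or disrupted. These factor genes also differed between the other untreated strains. Mean MSN4 was 27.3 CPM in hsf1∆, 58.6 CPM in HSF1+ and 38.4 CPM in WT, and mean MSN2 was 266 CPM in HSF1+ against 132.4 CPM in WT. The MATa markers STE2, MFA1, MFA2, STE6 and BAR1 were all present in the untreated libraries of the 4 strains, while the 4 markers of the other mating type differed. Its pheromone genes MF(ALPHA)1 and MF(ALPHA)2 stayed at 1.46 CPM or less in all libraries, and in untreated libraries STE3, its pheromone receptor gene, was at 3.98 to 9.85 CPM and SAG1, its agglutinin gene, at 48.3 to 99.2 CPM.

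Autophagy wraps cytoplasm in a double membrane, the autophagosome, and delivers it to the vacuole for breakdown. The Atg1 kinase complex starts the process, vesicles carrying Atg9 and the lipid transfer protein Atg2 supply membrane, the phosphatidylinositol 3-kinase complex marks the site, and a pair of ubiquitin-like systems couples Atg8 to lipid. In selective autophagy, receptors tie a cargo such as a vacuolar enzyme, a mitochondrion or a peroxisome to Atg8 and to the scaffold Atg11. In growing cells most ATG genes are transcribed at a low level. Repressors such as Ume6 hold some of them down, and nitrogen starvation is the classical inducer.

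The sequences upstream of 4 members are shown because these genes carry the comparisons that follow. ATG8 encodes the ubiquitin-like protein on the autophagosome membrane and had the largest heat response. ATG1 encodes the initiating kinase and was higher after AzC than after heat in WT, HSF1+ and the strain labelled msn2/4∆. In hsf1∆ ATG1 was lower after AzC than after heat, with levels that overlapped. ATG19 and ATG33 had smaller heat responses in the strain labelled msn2/4∆. Each window holds the 300 bases before the start codon, read 5′ to 3′ on the gene's strand from the R64 genome of RefSeq. They are chrII:80732-81031 on the minus strand for ATG8, and on the plus strand chrVII:159765-160064 for ATG1, chrXV:168427-168726 for ATG19 and chrXII:840021-840320 for ATG33. Capitals mark the motifs found on either strand: AGGGG (the stress response element of Msn2/4), GATAAG (the factors Gln3 and Gat1), TGACTC (Gcn4) and GGCGGC (the core of the Ume6 site). Another motif, the heat shock element of Hsf1, was searched as 3 alternating units of TTC and GAA with 2 free bases between units.
ATG8: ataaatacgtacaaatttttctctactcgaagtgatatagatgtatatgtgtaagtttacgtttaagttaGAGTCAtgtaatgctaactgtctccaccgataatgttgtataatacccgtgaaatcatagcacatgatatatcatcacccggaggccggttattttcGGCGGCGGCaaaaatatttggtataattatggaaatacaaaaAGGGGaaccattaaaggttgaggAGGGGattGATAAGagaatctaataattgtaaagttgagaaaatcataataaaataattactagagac
ATG1: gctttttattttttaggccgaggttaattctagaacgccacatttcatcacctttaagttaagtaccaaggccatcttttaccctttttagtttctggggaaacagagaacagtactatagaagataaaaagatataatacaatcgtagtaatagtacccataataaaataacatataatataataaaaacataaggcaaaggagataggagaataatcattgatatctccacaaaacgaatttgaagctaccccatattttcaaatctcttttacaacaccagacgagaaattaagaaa
ATG19: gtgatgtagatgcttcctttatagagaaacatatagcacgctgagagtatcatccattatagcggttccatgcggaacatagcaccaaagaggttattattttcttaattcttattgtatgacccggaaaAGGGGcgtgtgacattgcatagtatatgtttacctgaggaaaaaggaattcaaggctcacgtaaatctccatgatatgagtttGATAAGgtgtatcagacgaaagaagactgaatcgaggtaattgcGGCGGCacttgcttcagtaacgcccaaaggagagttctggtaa
ATG33: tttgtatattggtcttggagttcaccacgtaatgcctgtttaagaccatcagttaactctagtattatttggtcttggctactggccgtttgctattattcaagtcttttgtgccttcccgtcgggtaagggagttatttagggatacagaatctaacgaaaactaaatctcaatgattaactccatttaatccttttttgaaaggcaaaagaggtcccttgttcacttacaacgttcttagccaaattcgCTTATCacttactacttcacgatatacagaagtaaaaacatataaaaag

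In the ATG8 window AGGGG began 91 and 68 bases before the start codon, GATAAG 60 bases before it, the complement of TGACTC 230 bases before it, and a pair of overlapping GGCGGC matches of which the nearer began 130 bases before it. ATG19 held AGGGG at 170, GATAAG at 87 and GGCGGC at 43 bases before the start codon. ATG33 held the complement of GATAAG at 49 bases, and the ATG1 window held none of the motifs. Over the 31 members, AGGGG was in 9 windows (29%), against 22.2% of 6001 upstream windows of the genome. GATAAG was in 10 member windows (32.3%), against 14.7% of all windows, and TGACTC in 4 (12.9%), against 7.77%. GGCGGC was in 2 member windows (6.45%), against 5.2% of all, and the heat shock element was in 0 of the 31, against 0.867% of all. A match is a run of letters and does not show that a factor binds.

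Untreated WT cells held the ATG transcripts at levels that spanned more than an order of magnitude. Per kilobase of gene length, ATG27, which encodes a membrane protein of Atg9 vesicle traffic, was highest at 180.2 ± 11 CPM per kb (SD, n = 3). ATG19, the receptor for the vacuolar aminopeptidase Ape1, came next at 64.9 ± 0.84 CPM per kb, above ATG33, a factor of mitochondrial autophagy, at 46.6 ± 3.0 CPM per kb. ATG33, ATG12 and ATG5 lay within their spread of each other, the last 2 at 45.0 ± 3.5 and 44.8 ± 2.6 CPM per kb. ATG8 was at 35.1 ± 5.0 CPM per kb. The lowest were ATG2 at 6.62 ± 0.21, ATG10 at 6.55 ± 0.75 and ATG14 at 6.35 ± 0.52 CPM per kb, which overlapped.

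Heat raised most of the ATG genes in every strain. In WT, 26 of 31 members rose, 2 fell and 3 did not pass the test (edgeR's quasi-likelihood test, Benjamini-Hochberg adjusted p under 0.05 over 6109 genes), and 16 rose at least 2-fold. Over all genes tested 42% rose and 38.1% fell, and 19.3% rose at least 2-fold. The median log2 change of the members in WT was 1.10, beside 0.05 for all genes tested. Of the core machinery 17 of 22 rose and 2 fell, and of the selective members 9 of 9 rose, with medians of 1.04 and 1.23.

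The other strains were counted likewise. In bulk RNA a change in every cell and a change in some cells cannot be told apart. In hsf1∆ 25 members rose and 2 fell, where 38.2% of all genes rose and 38.4% fell. In HSF1+ 26 rose and 3 fell, against 40% and 36.5% of all genes. In the strain labelled msn2/4∆ 27 rose and 4 fell, against 43.5% and 34% of all genes. The median log2 change of the members was 0.97 in hsf1∆, 0.88 in HSF1+ and 0.88 in the strain labelled msn2/4∆. Each strain had its own untreated libraries, and 24 members rose in all 4 strains while ATG10 and ATG27 fell in all 4, where 27.3% of all genes rose and 25.8% fell in all 4. The share of all counts that fell on the 31 genes was 0.187% to 0.237% in heat-treated libraries, against 0.0919% to 0.12% in untreated ones.

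**Figure D1:**
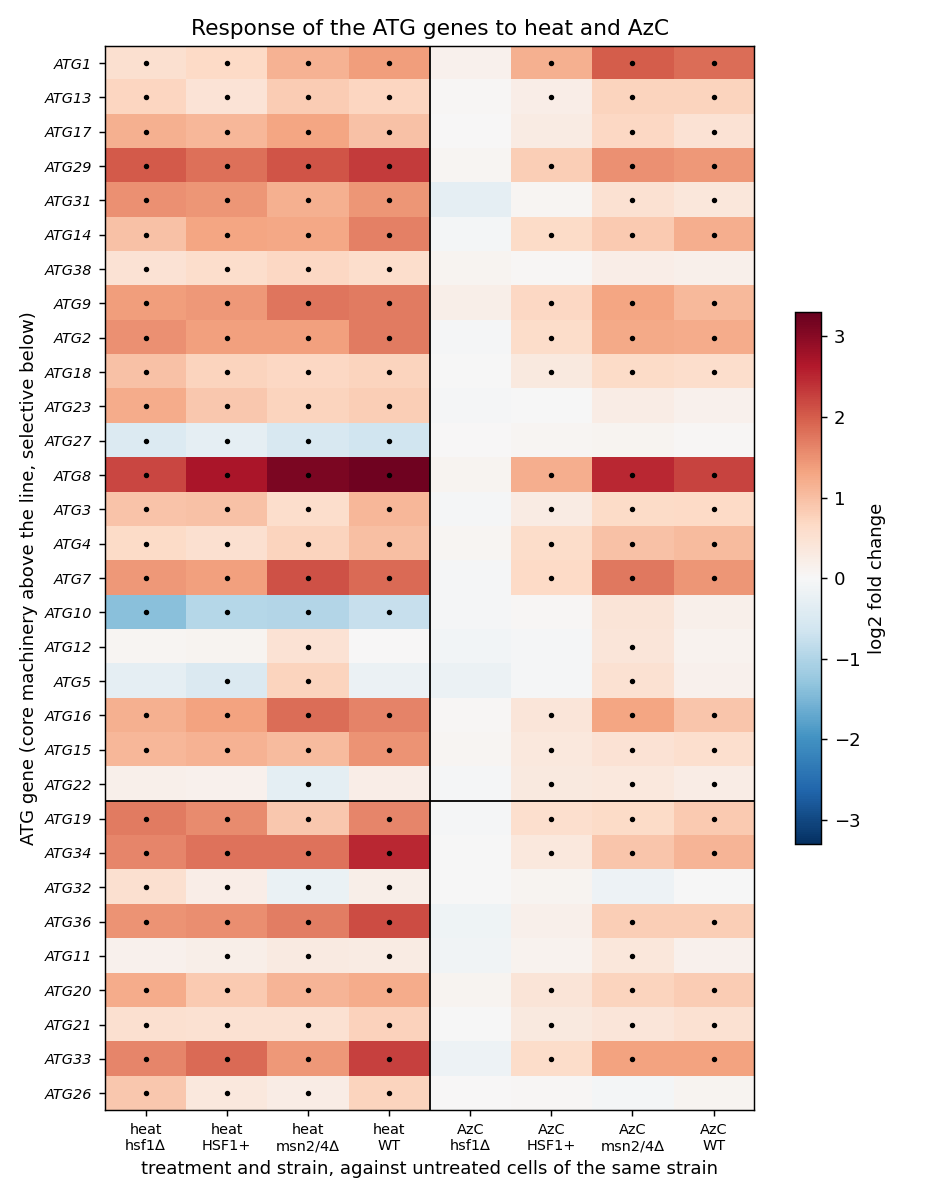
Log2 fold change of each of the 31 ATG genes (rows, core machinery above the line and selective members below) after heat (left 4 columns) and after AzC (right 4 columns), each against untreated cells of the same strain. Dots mark an adjusted p under 0.05. In each heat column 25 to 27 members have both a dot and a positive change, and the AzC column of hsf1∆ carries no dot.

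Among the genes of Atg8 and its conjugation, ATG8 itself changed most. It stood at 110.1, 113.99 and 120.6 CPM in heat-treated WT, against 11.5, 11.3 and 14.5 CPM in untreated WT. In hsf1∆ it was at 128.6 to 139.5 CPM in the 3 libraries after heat, against 33.1, 25.2 and 28.9 CPM untreated. The heat libraries lay far above the untreated ones with no overlap in either strain, and the log2 change was 3.20 ± 0.14 (SE) in WT (edgeR adjusted p = 4.44e-18) and 2.20 ± 0.13 in hsf1∆ (7.25e-15). In HSF1+ it was 2.69 ± 0.14 and in the strain labelled msn2/4∆ 3.10 ± 0.14. ATG7, the activating enzyme for Atg8 and Atg12, rose by 1.87 ± 0.10 in WT, and ATG3, ATG4 and ATG16, further enzymes and partners of conjugation, rose in all 4 strains.

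ATG10, the conjugating enzyme for Atg12, went the other way. It was at 2.21, 1.91 and 1.66 CPM in heat-treated WT, against 3.74, 3.14 and 3.03 CPM in untreated WT, a low level throughout, and the groups did not overlap. The log2 change was -0.76 ± 0.21 in WT (edgeR adjusted p = 0.00142) and -1.37 ± 0.24 in hsf1∆ (9.78e-06). ATG12 changed by 0.02 ± 0.09 in WT and did not pass (adjusted p = 0.822). ATG5, which Atg12 is joined to, was at 41.8, 34.4 and 28.8 CPM in heat-treated WT, against 39.3, 37.5 and 42.1 CPM in untreated WT, and these groups overlapped.

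The initiation complex rose as a group, with all 5 members higher after heat in all 4 strains. ATG1 was at 60.4, 73.5 and 67.7 CPM in heat-treated WT, against 27.0, 28.0 and 22.9 CPM in untreated WT, with no overlap and a log2 change of 1.37 ± 0.12 (edgeR adjusted p = 1.6e-11). ATG29, a scaffold subunit beside Atg17 and Atg31, was at 44.5, 61.5 and 62.6 CPM after heat, against 12.3, 10.2 and 11.6 CPM untreated, a rise of 2.32 ± 0.17. Its gene overlaps SET6 on the opposite strand by 24 bases, and no source used here says whether counting used strand. ATG13, the regulatory subunit that TORC1 phosphorylates, rose by 0.72 ± 0.08 in WT.

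Of the genes for membrane supply, ATG9 was at 61.2, 78.7 and 78.5 CPM in heat-treated WT, against 22.7, 21.4 and 22.4 CPM in untreated WT. Every heat library lay above every untreated one, with a log2 change of 1.72 ± 0.09 in WT, 1.38 ± 0.09 in hsf1∆, 1.43 ± 0.09 in HSF1+ and 1.75 ± 0.09 in the strain labelled msn2/4∆. ATG2 rose by 1.71 ± 0.09 in WT. ATG27 fell, to 96.5, 93.4 and 91.2 CPM in heat-treated WT, against 145.6, 138.9 and 156.7 CPM in untreated WT, and its log2 change was -0.65 ± 0.07 (edgeR adjusted p = 1.68e-09). ATG14, the subunit that directs the phosphatidylinositol 3-kinase to autophagy, rose by 1.66 ± 0.17, and ATG15, the vacuolar lipase that opens autophagic bodies, by 1.49 ± 0.12. ATG22, a vacuolar amino acid exporter, changed by 0.22 ± 0.10 in WT and did not pass (adjusted p = 0.0536).

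Among the selective members the receptors differed widely. ATG34, a receptor for alpha-mannosidase, was at 75.3, 79.8 and 78.5 CPM in heat-treated WT, against 14.7, 12.4 and 15.0 CPM in untreated WT, a rise of 2.48 ± 0.14 (edgeR adjusted p = 2.07e-15). ATG36, the peroxisome receptor, rose by 2.16 ± 0.14, and ATG19 by 1.60 ± 0.08, with 226, 255 and 256 CPM after heat against 82.1, 80.8 and 80.0 CPM untreated. The groups of these receptors did not overlap. ATG32, the mitochondrial receptor, was at 36.7, 36.5 and 38.2 CPM after heat in WT, against 30.1, 36.3 and 30.8 CPM untreated, a rise of 0.19 ± 0.09 (adjusted p = 0.0413). This call was lost without any heat-treated WT replicate and without untreated WT replicate 1 or 3.

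ATG33 rose to 131.2, 131.9 and 133.6 CPM in heat-treated WT, against 27.0, 26.3 and 29.7 CPM in untreated WT, a log2 change of 2.25 ± 0.10 (edgeR adjusted p = 1.28e-17), and the libraries of each group lay close together. ATG11, the scaffold of selective autophagy, moved least of the scaffold group, by 0.26 ± 0.08. ATG20, a sorting nexin of the cytoplasm-to-vacuole pathway, rose by 1.23 ± 0.08, ATG21, a lipid-binding protein of that pathway, by 0.76 ± 0.08, and ATG26, a sterol glucosyltransferase, by 0.73 ± 0.09.

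**Figure D2:**
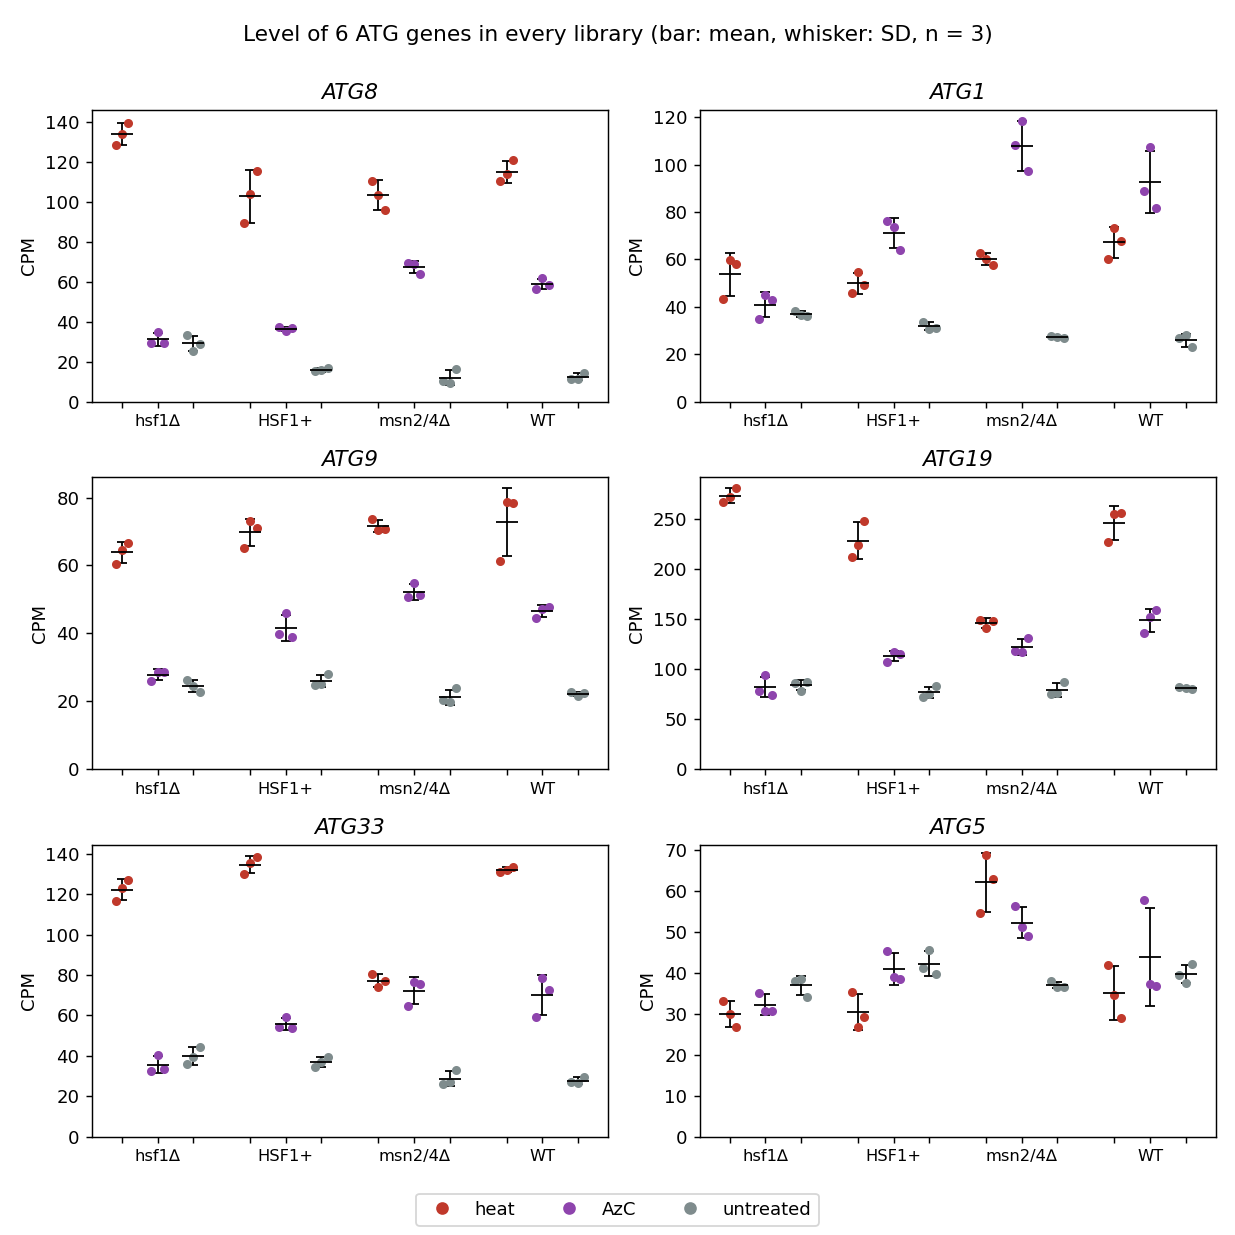
CPM of 6 ATG genes in every library, with the mean and SD of the 3 libraries of each group, for heat, AzC and untreated cells from left to right within each strain. ATG8 after heat stood between 89.1 and 139.5 CPM in all strains, and ATG5 passed as a rise after heat in the strain labelled msn2/4∆, at 54.5 to 68.6 CPM, and in no other strain.

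AzC raised the ATG genes in WT, in HSF1+ and in the strain labelled msn2/4∆, and no member passed in hsf1∆. In WT 22 of 31 members rose and 0 fell, with 10 rising at least 2-fold, where 34.2% of all genes rose, 10.1% at least 2-fold, and 32.7% fell. The median log2 change was 0.65 for the members and 0.02 for all genes. By class, 16 of 22 core members and 6 of 9 selective members rose. In HSF1+ 19 rose and 0 fell, where 23% of all genes rose and 21.9% fell, and in the strain labelled msn2/4∆ 25 rose and 0 fell, where 36% rose and 31% fell. The medians were 0.32 in HSF1+ and 0.64 in the strain labelled msn2/4∆. Of the members, 19 rose in all 3 of these strains, where 20.5% of all genes did, and ATG38, ATG23, ATG27, ATG10, ATG32 and ATG26 rose in none, where 59.2% of all genes rose in none. These 19 are the members called in HSF1+, of which 12 kept that call whichever library was left out and ATG13, ATG14, ATG3, ATG16, ATG15, ATG22 and ATG34 did not. The HSF1+ count was 14 without untreated HSF1+ replicate 1 or 2.

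ATG8 again changed most after AzC. It was at 56.5, 61.8 and 58.5 CPM in AzC-treated WT, against 11.5, 11.3 and 14.5 CPM in untreated WT, with no overlap, and the log2 change was 2.24 ± 0.13 (edgeR adjusted p = 2.74e-14). ATG1 was at 88.9, 107.5 and 81.9 CPM in AzC-treated WT, against 27.0, 28.0 and 22.9 CPM untreated, a rise of 1.84 ± 0.12 (1.54e-13). ATG7 and ATG29 each rose by 1.44, with SEs of 0.10 and 0.17, and ATG33, the largest rise among selective members, by 1.34 ± 0.10. ATG9 rose by 1.07 ± 0.09 and ATG19 by 0.87 ± 0.08, while ATG32 changed by -0.01 ± 0.09 and did not pass (adjusted p = 0.932).

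In hsf1∆ the AzC libraries overlapped the untreated ones for ATG8, at 29.2, 34.7 and 29.4 CPM after AzC against 33.1, 25.2 and 28.9 CPM untreated. ATG1 was at 34.8, 45.0 and 42.8 CPM after AzC, against 38.3, 36.7 and 35.9 CPM untreated, and ATG9 at 26.1, 28.7 and 28.7 CPM, against 26.3, 24.5 and 22.6 CPM. The count of 0 of 31 came from edgeR, with 1 member at an unadjusted p under 0.05, and DESeq2 also called 0. Over all genes AzC changed 0.0164% in hsf1∆, so the members shared this lack of calls with the whole transcriptome. The 95% intervals of the 31 log2 changes lay between -0.55 and 0.46, all of them below a 2-fold rise.

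The difference between the responses was tested as an interaction, hsf1∆ minus HSF1+. The AzC response was smaller in hsf1∆ for 12 of 31 members and larger for 0, where 13% of all genes had a smaller (more negative) and 7.55% a larger response. These were 8 core members and 4 selective members, and the median difference of the 31 was -0.34. The differences were largest for ATG8, at -1.10 ± 0.19 (edgeR adjusted p = 8.55e-05), and ATG1, at -1.02 ± 0.17 (5.35e-05). In HSF1+ ATG8 was at 37.2, 35.3 and 36.7 CPM after AzC, against 15.1, 15.8 and 16.7 CPM untreated, and ATG1 at 76.1, 73.6 and 64 CPM, against 33.8, 30.5 and 31.0 CPM. So both genes had separate groups in HSF1+ and overlapping groups in hsf1∆. Of the 12, ATG1, ATG8, ATG33, ATG7, ATG2, ATG19 and ATG9 kept the call whichever library was left out. The count was 7 without untreated HSF1+ replicate 2, AzC-treated hsf1∆ replicate 1 or AzC-treated HSF1+ replicate 2.

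**Figure D3:**
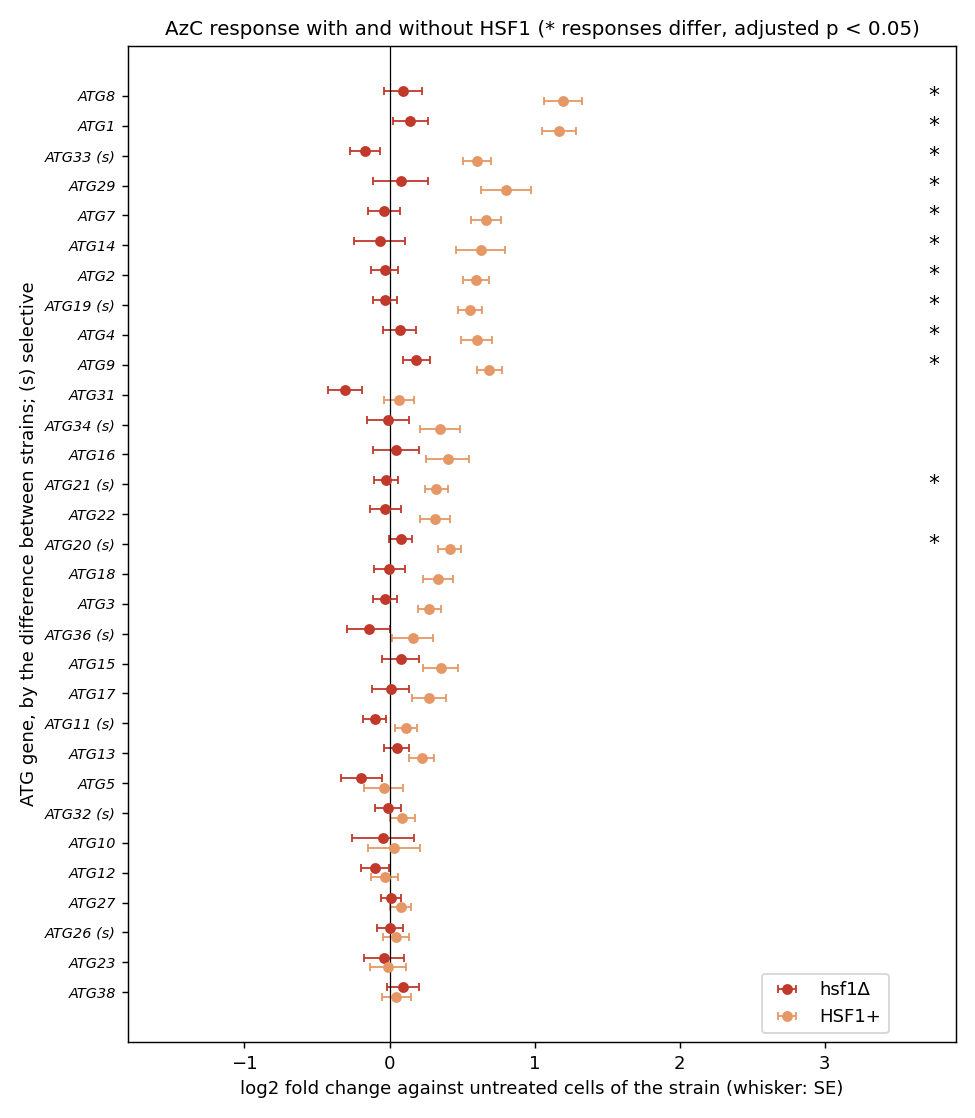
Log2 change after AzC in hsf1∆ and in HSF1+ for each ATG gene, with SE, ordered by the difference between the strains; stars mark genes whose responses differ at an adjusted p under 0.05. The hsf1∆ points lie between -0.31 and 0.18, while HSF1+ reaches 1.20 for ATG8.

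Further values touch this comparison. The HSF1+ strain itself responded less to AzC than WT, with 13 of 31 members smaller and 0 larger, against 11.2% and 11.3% of all genes, and ATG8 differing by -1.04 ± 0.18 (edgeR adjusted p = 0.000271). The count fell to 8 without untreated HSF1+ replicate 3. ATG8 was also higher in untreated hsf1∆ than in untreated HSF1+, at 25.2 to 33.1 CPM against 15.1 to 16.7 CPM, a log2 difference of 0.88 ± 0.14 (8.81e-06). The part of the cassette and of the untreated level in the AzC difference was not tested.

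The heat response was larger in hsf1∆ than in HSF1+ for 2 members, ATG26 by 0.54 ± 0.12 (edgeR adjusted p = 0.00181) and ATG20 by 0.35 ± 0.11 (0.0253), and smaller for 0, where 8.04% of all genes had a larger and 14.2% a smaller response. ATG26 was at 145.9, 164.2 and 159.6 CPM in heat-treated hsf1∆, against 113.01, 131.5 and 142.8 CPM in heat-treated HSF1+, with levels that did not overlap. ATG20 lost the call without heat-treated hsf1∆ replicate 2, heat-treated HSF1+ replicate 1 or untreated HSF1+ replicate 3, and the difference for ATG8 was -0.49 ± 0.18 (0.0514). With replicate number as a block 6 members were called, and 4 by DESeq2. Against WT in place of HSF1+ the count was 9, and the sign of ATG20 turned, to -0.015. These counts of 6, 4 and 9 take larger and smaller responses together. After heat ATG8 rose by 2.20 in hsf1∆ and by 3.20 in WT, a smaller response in hsf1∆. ATG26 rose by 0.89 in hsf1∆ and by 0.73 in WT.

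In the strain labelled msn2/4∆ the heat response was smaller than in WT for 9 members and larger for 2, where 13.9% of all genes had a smaller and 16.3% a larger response. The smaller ones were 5 of the 9 selective members, ATG33, ATG19, ATG34, ATG26 and ATG32, and 4 of the 22 core members, ATG22, ATG3, ATG15 and ATG2. ATG33 was at 80.8, 74.3 and 76.9 CPM in heat-treated cells of the strain labelled msn2/4∆, against 131.2, 131.9 and 133.6 CPM in heat-treated WT. ATG19 was at 149, 140.5 and 148 CPM, against 226, 255 and 256 CPM, and ATG34 at 44.2, 52.9 and 50.5 CPM, against 75.3, 79.8 and 78.5 CPM. The heat libraries of the strains did not overlap for any of the 3 genes, though each still rose in both strains. The differences of response were -0.83 ± 0.14 (edgeR adjusted p = 4.83e-05), -0.72 ± 0.12 (2.83e-05) and -0.68 ± 0.20 (0.0104).

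ATG32 stood at 24.2, 27.0 and 24.9 CPM after heat in the strain labelled msn2/4∆, against 28.0, 31.3 and 29.6 CPM in its untreated cells, and fell there by 0.22 on the log2 scale (edgeR adjusted p = 0.0262), a call lost without its heat-treated replicate 1 or 3 or its untreated replicate 2. Its response differed from WT by -0.41 ± 0.12 (0.0119). ATG5 and ATG12 went the other way: ATG5 was at 54.5, 68.6 and 62.9 CPM in heat-treated cells of the strain labelled msn2/4∆, against 37.9, 36.6 and 36.4 CPM in its untreated cells, and its response exceeded that of WT by 0.93 ± 0.20 (0.000674). ATG12 differed by 0.47 ± 0.13 (0.00927). ATG8, ATG1 and ATG9 differed by -0.10 ± 0.19, -0.23 ± 0.17 and 0.04 ± 0.12 and did not pass. ATG34 lost the call without untreated replicate 3 of the strain labelled msn2/4∆, ATG2 without its untreated replicate 2, its heat-treated replicate 2 or 3, heat-treated WT 3 or untreated WT 3, and ATG15 without any of 8 of the 12 libraries. The other 8 members kept it.

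**Figure D4:**
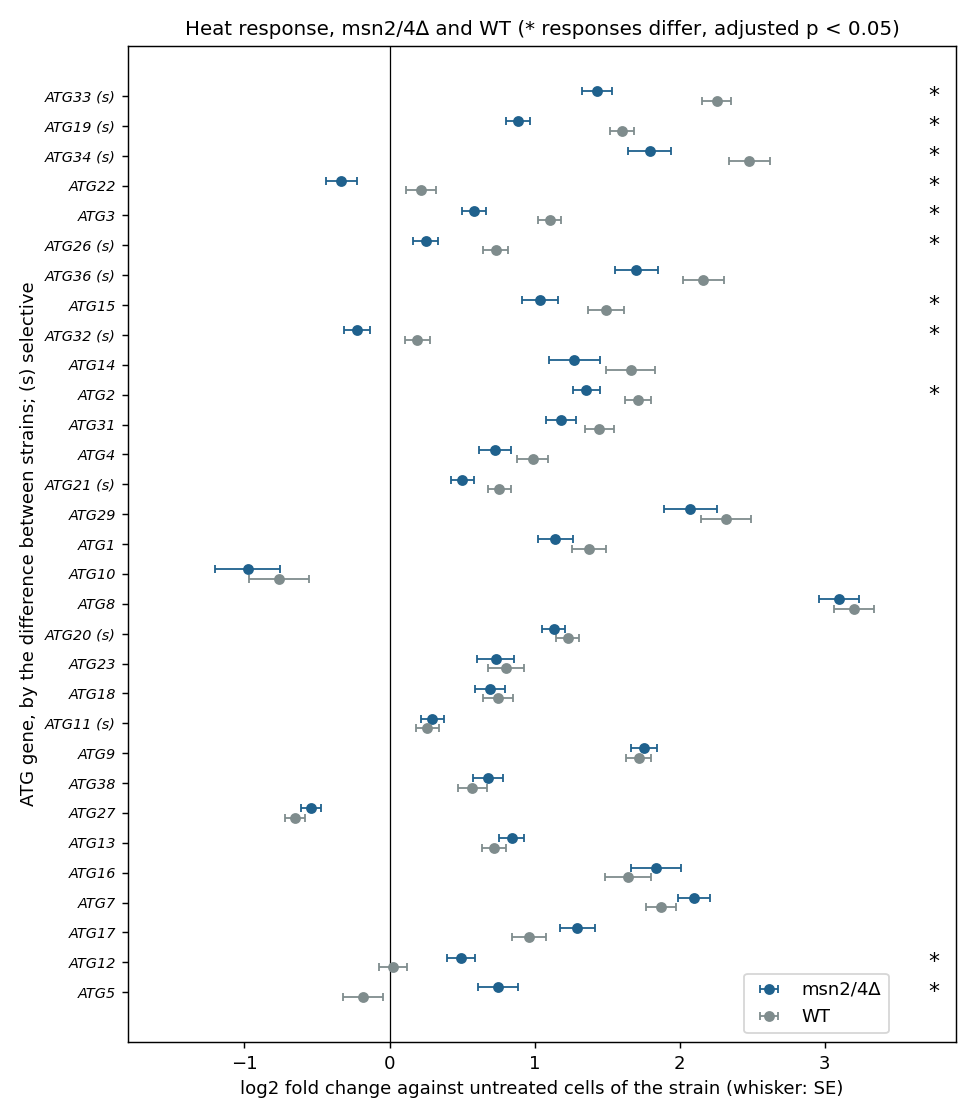
Log2 change after heat in the strain labelled msn2/4∆ and in WT for each ATG gene, with SE, ordered by the difference between the strains; stars mark genes whose responses differ at an adjusted p under 0.05. ATG33, ATG19 and ATG34 lie lowest relative to WT, and ATG5 and ATG12 highest.

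Of the 9 members with the smaller response, 4 held AGGGG in the window (ATG19, ATG34, ATG32 and ATG26) and 5 did not, ATG33 among them. Of the other 22 members 5 held it (ATG29, ATG9, ATG8, ATG10 and ATG20). Over the genome 22.2% of 6001 upstream windows held it. The median difference of response was -0.25 for the 9 members with AGGGG and -0.15 for the 22 without it. ATG8, with AGGGG at 91 and 68 bases, had close values in both strains, 3.10 ± 0.14 in the strain labelled msn2/4∆ and 3.20 ± 0.14 in WT. Whether AGGGG has a part in the difference between the strains was not tested.

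The AzC response did not pass as different between the strain labelled msn2/4∆ and WT for any member. edgeR called 0 of 31, with 3 at an unadjusted p under 0.05, and DESeq2 called 0, where 0.524% of all genes had a larger and 1.05% a smaller response. The 95% intervals of the differences ran from -0.84 to 0.87. With replicates 2 and 3 alone, 1 member was called. Untreated levels did not pass as different either, with 0 of 31 called by edgeR and by DESeq2 and 0 at an unadjusted p under 0.05, where 0.262% of all genes were higher and 0.786% lower.

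The HSF1+ strain, whose genotype label gives the cassette and also lists LYS2, was not equal to WT. Its HSF1 transcript was lower, at a mean of 55.4 CPM untreated against 98.4 CPM in WT (log2 difference -0.83 ± 0.135, edgeR adjusted p = 1.43e-05). Mean HSF1 was 155.9 against 199.2 CPM after heat and 101.3 against 171.8 CPM after AzC. The part of the HSF1 level in the differences between these strains was not tested. Untreated, 7 members were higher and 1, ATG27, lower, where 17.5% of all genes were higher and 12.6% lower. ATG16, the partner of Atg5 in the Atg12 conjugate, was at 13.5, 14.5 and 15.4 CPM in HSF1+, against 6.80, 5.35 and 7.17 CPM in WT, a difference of 1.18 ± 0.16 (edgeR adjusted p = 6.63e-07), with no overlap. ATG34 differed by 0.84 ± 0.14 and ATG36 by 0.66 ± 0.14, and ATG33 by 0.41 ± 0.10. The count was 5 without untreated HSF1+ replicate 3, and ATG27 lost its call without untreated WT replicate 3. ATG16, ATG34, ATG36 and ATG33 kept the call whichever library was left out, and ATG13, ATG3 and ATG26, like ATG27, did not. In heat, 7 members had a smaller response in HSF1+ than in WT and 1, ATG27, a larger one in the signed sense, a fall that was less deep, where 7.56% and 4.21% of all genes did so. This count was 2 without untreated WT 2 or heat-treated HSF1+ 1, 3 without untreated HSF1+ 3 or heat-treated WT 3, 4 without heat-treated WT 2 and 5 without untreated WT 1. Only ATG1, at -0.72 ± 0.17 (0.00433), kept its call throughout.

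Between untreated hsf1∆ and HSF1+, 2 members were higher and 5 lower, where 19.5% and 18.9% of all genes were. The higher were ATG8 and ATG14, which differed by 0.88 ± 0.14 and 0.53 ± 0.18. The lower were ATG23, ATG38, ATG27, ATG26 and ATG13, with log2 differences of -0.51 to -0.22. ATG13 lost the call without untreated hsf1∆ replicate 1 or any untreated HSF1+ replicate, ATG14 without untreated hsf1∆ replicate 3 or untreated HSF1+ replicate 1 or 2, and ATG26 without untreated hsf1∆ replicate 3 or untreated HSF1+ replicate 1.

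A direct comparison of AzC with heat in WT gave lower levels after AzC for 21 members and higher for 4, where 32.7% of all genes were lower and 30.5% higher. Dose and time are not matched between the treatments, so this sets AzC at 10 mM for 1 h beside 15 min at 37 °C. The 4 higher were ATG10, ATG27, ATG1 and ATG5. Of these only ATG1 rose after AzC against untreated WT. ATG10, ATG27 and ATG5 changed by 0.17, 0.04 and 0.15 after AzC and did not pass. Heat lowered ATG10 and ATG27, with log2 changes of -0.76 and -0.65. ATG1 was at 88.9, 107.5 and 81.9 CPM after AzC, against 60.4, 73.5 and 67.7 CPM after heat, a difference of 0.46 ± 0.12 (edgeR adjusted p = 0.000906) with no overlap. For ATG1 the same difference was 0.84 ± 0.12 in the strain labelled msn2/4∆, 0.52 ± 0.12 in HSF1+ and -0.39 ± 0.12 in hsf1∆. In hsf1∆ the ATG1 groups overlapped. There ATG1, like every other member, did not pass after AzC (0.14 ± 0.12), and it rose by 0.54 ± 0.12 after heat. ATG5 differed by 0.33 and lost the call without AzC-treated WT replicate 1, heat-treated WT replicate 2 or heat-treated WT replicate 3, with log2 differences of 0.084, 0.32 and 0.21 in those fits. The largest falls below heat were ATG36 at -1.36 ± 0.14 and ATG34 at -1.35 ± 0.14, receptors of selective autophagy. ATG8 differed by -0.96 ± 0.12, at 56.5 to 61.8 CPM against 110.1 to 120.6 CPM. In hsf1∆ 26 members were lower and 2 higher, where 37.9% and 38.3% of all genes were. In HSF1+ 22 were lower and 4 higher, against 34.8% and 34.7%, and in the strain labelled msn2/4∆ 16 and 4, against 29.6% and 28.1%.

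**Figure D5:**
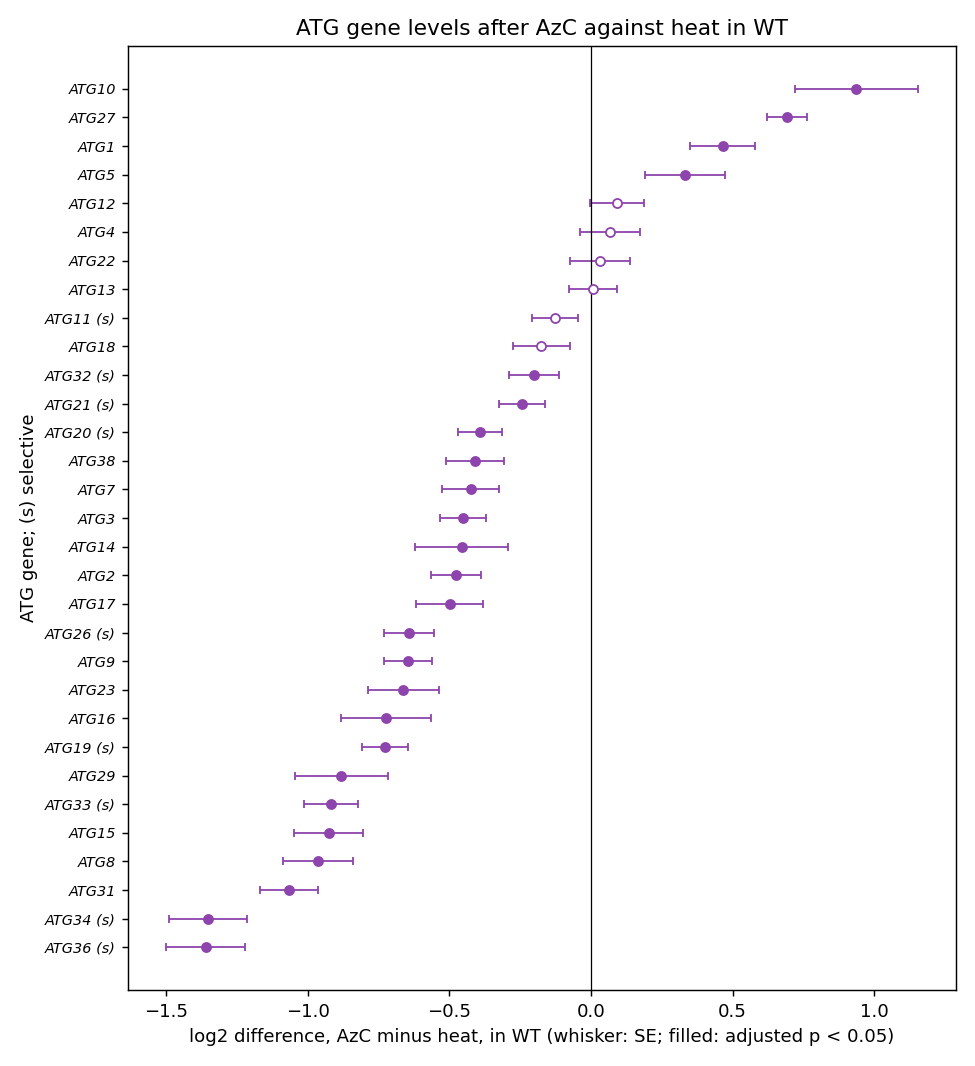
Log2 difference in level of each ATG gene after AzC minus after heat in WT, with SE; filled points have an adjusted p under 0.05. ATG10, ATG27, ATG1 and ATG5 lie above 0 among the filled points, and ATG36 and ATG34 lie lowest.

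Genes that RefSeq names ATG but the deposited table lists under other names were outside the rule and were looked at separately. There were 6, and all rose after heat in WT, where 42% of all genes rose. After heat in hsf1∆ 3 of the 6 rose and 1, ATG45, fell, where 38.2% of all genes rose and 38.4% fell. ATG42, a vacuolar carboxypeptidase, was at 384.5, 518 and 539.5 CPM in heat-treated WT, against 51.4, 60.7 and 65.1 CPM in untreated WT, a rise of 3.02 ± 0.14. ATG41, an Atg9 partner, was at 162, 271 and 268 CPM in AzC-treated WT, against 21.1, 22.0 and 25.2 CPM in untreated WT, a rise of 3.35 ± 0.30 (edgeR adjusted p = 1.56e-10). In hsf1∆ it was at 8.86, 12.4 and 12.2 CPM after AzC, against 13.0, 12.4 and 15.1 CPM untreated, and the response differed from HSF1+ by -3.65 ± 0.46 (9.8e-07), a larger difference than that of any of the 31 members. ATG39, a receptor for the nuclear envelope, was at 10.6, 11.8 and 15.7 CPM in heat-treated WT, against 1.42 to 3.16 CPM untreated, a low level with no overlap. ATG40, an endoplasmic reticulum receptor, was at 30.5, 30.5 and 38.9 CPM in heat-treated WT, against 18.6, 15.8 and 17.2 CPM untreated, and rose by 0.97 ± 0.15.

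Related genes of the pathway, taken as fixed lists, were counted the same way. Of 12 genes for vacuolar enzymes and other vacuolar proteins, 10 rose and 2 fell after heat in WT, VPH1, a subunit of the vacuolar proton pump, and PHO8, the vacuolar alkaline phosphatase, against 42% and 38.1% of all genes, with APE1, the aminopeptidase that Atg19 carries, up by 3.85 ± 0.19 and PEP4, the master vacuolar protease, by 2.17 ± 0.08. After AzC in WT 9 rose and 1 fell, where 34.2% of all genes rose and 32.7% fell, and in hsf1∆ the log2 changes of the 12 lay between -0.13 and 0.16 and did not pass, where 0.0164% of all genes did. Of 20 partner genes 12 rose and 2 fell after heat in WT, with SNX4, the sorting nexin that works with Atg20, up by 1.20 ± 0.07 after heat and 1.30 ± 0.07 after AzC. Of 27 genes of signalling and transcriptional control, 18 rose and 5 fell after heat in WT. LST8, a TORC1 subunit gene, was at 433, 544 and 535 CPM in AzC-treated WT, against 78.1, 67.3 and 76.3 CPM in untreated WT, and in hsf1∆ it was at 46.1, 47.5 and 48.7 CPM after AzC, against 45.8, 47.6 and 44.1 CPM untreated. Its AzC response differed between hsf1∆ and HSF1+ by -2.23 ± 0.23 (edgeR adjusted p = 3.43e-08). GCN4 fell by 1.21 after heat and by 1.05 after AzC in WT on the log2 scale, and TPK3, a catalytic subunit of protein kinase A, fell by 1.57 and 0.81.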

How the data were processed

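Raw counts per gene for 36 libraries were used as deposited by the authors, as whole numbers with no normalization. Per the labels' protocols, RNA extracted with RiboPure Yeast was made into TruSeq libraries after poly-A selection and read on a NovaSeq6000. The submitters' processing notes list the build R64 and the tools STAR, Salmon, FastQC and Trim Galore. No source used here names the counter, its strand setting or its annotation. Cells were grown in triplicate per the labels, with no word on further independence, so p-values measure only the spread between these libraries.

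R 4.3.3 with edgeR 4.0.16 was used: after filterByExpr by group (6109 genes left) and TMM scaling, a quasi-likelihood model with a mean for each of the 12 groups took in all 36 libraries. Benjamini-Hochberg adjusted p under 0.05 over all 6109 genes was called, in 21 contrasts. The fit was also run on counts simulated from its own dispersions, with far fewer genes changed than after heat. That run cannot speak for the calls made here. DESeq2 1.42.0 was an alternative. Upstream windows came from the R64 RefSeq genome, in place of a promoter table that was planned. Every 50-base stretch of the 31 genes was unique in the genome.

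Any member may be named. Values in every library were given for ATG8, ATG1, ATG9, ATG19, ATG32, ATG39 and ATG40 and for up to 3 largest and 3 smallest changes in a contrast, with a selection printed. Values of ATG41, ATG42, LST8 and ATG26 in every library were added after seeing them. Members and lists were chosen with earlier results of these data known. Equal replicate numbers correlated over 0.1 in all 3 pairs in some contrasts, such as heat in WT (0.224, 0.117 and 0.361), and not in others, such as heat in hsf1∆.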

Additional observations from a re-analysis of the deposited data

Results flagged for a closer look

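Of the 31 ATG genes, those listed here had a response to a treatment that differed between strains by an interaction test in edgeR. The values are differences of log2 responses. The heat response of hsf1∆ minus that of HSF1+ was 0.35 for ATG20 and 0.54 for ATG26. The AzC response of hsf1∆ minus that of HSF1+ was -1.10 for ATG8, -1.02 for ATG1, -0.77 for ATG33, -0.72 for ATG29, -0.70 for ATG7, -0.70 for ATG14, -0.63 for ATG2, -0.59 for ATG19, -0.53 for ATG4, -0.50 for ATG9, -0.35 for ATG21 and -0.34 for ATG20. The heat response of the strain labelled msn2/4∆ minus that of WT was -0.83 for ATG33, -0.72 for ATG19, -0.68 for ATG34, -0.55 for ATG22, -0.52 for ATG3, -0.48 for ATG26, -0.46 for ATG15, -0.41 for ATG32, -0.36 for ATG2, 0.47 for ATG12 and 0.93 for ATG5. The heat response of HSF1+ minus that of WT was -0.72 for ATG1, -0.68 for ATG34, -0.62 for ATG36, -0.51 for ATG7, -0.46 for ATG4, -0.39 for ATG26, -0.36 for ATG20 and 0.35 for ATG27. The AzC response of HSF1+ minus that of WT was -1.04 for ATG8, -0.78 for ATG7, -0.78 for ATG34, -0.74 for ATG33, -0.67 for ATG1, -0.64 for ATG36, -0.64 for ATG2, -0.51 for ATG13, -0.45 for ATG4, -0.42 for ATG20, -0.38 for ATG9, -0.38 for ATG3 and -0.32 for ATG19.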

How the results depend on the processing

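Each count of members was recomputed with DESeq2, scaling by library size alone, RLE factors, all genes unfiltered, the compared groups alone, replicates 2 and 3 alone, the 4 deep libraries thinned, replicate number as a block, WT as the reference strain of hsf1∆, and each library left out. Each count took both directions together. Most counts stayed within 1.5 times of the reported one, and AzC in hsf1∆ stayed at 0 in each. The heat interaction of hsf1∆ with HSF1+ (2 members) gave 4 with library size alone, 4 with DESeq2 and 9 with WT as reference, where ATG20 turned to -0.015. The AzC interaction of hsf1∆ (12) gave 21 with WT as reference. The heat interaction of HSF1+ with WT (8) gave 14 with library size alone and 5 with the compared groups alone. The AzC interaction of the strain labelled msn2/4∆ (0) gave 1 with replicates 2 and 3 alone. The causes were not tested. With replicate number as a block, the heat interaction of hsf1∆ gave 6, and no other count moved by over 1.5 times. With single libraries left out, the heat interaction of hsf1∆ ran from 1 to 3, its AzC interaction from 7 to 13, the heat and AzC interactions of HSF1+ with WT from 2 to 12 and from 8 to 14, and untreated HSF1+ against WT from 5 to 8. Library size alone moved the median of all genes by 0.27 for heat and 0.25 for AzC in the strain labelled msn2/4∆. Of the tests of single genes under these settings, 306 lost a call, 192 gained one and 1 reversed, while 4757 were unchanged. With 3 libraries per group, differences of response had SEs of 0.10 to 0.33.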
